A study of Rattus norvegicus with 4 samples.

Results

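The genes described here encode the mitochondrial respiratory chain and the ATP synthase. They were chosen by name and chromosome, not by their values: every table entry on the mitochondrial chromosome, every nuclear gene whose symbol begins with Nduf, Cox4 to Cox8, Uqcr or Atp5, the genes Sdha to Sdhd, and Cyc1 and Cycs. This gave 97 of 17853 table entries, 13 mitochondrially encoded and 84 nuclear. All samples were brain tissue from rats that had an intracerebral hemorrhage, a bleeding into the brain. The 4 groups were ipsilateral (bleeding side) and contralateral tissue at 13 months of age (adult) and at 21 months (old), and each group held 1 library of polyadenylated RNA. The labels describe RNA pooled from 9 brains; the sources used here do not give the strain, the hemorrhage model or the time after the bleeding. No group came from rats without a hemorrhage, so the contralateral side is tissue of the same disease and not an uninjured control.

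The respiratory chain is a set of protein complexes in the inner mitochondrial membrane. Complexes I and II take electrons from NADH and succinate, ubiquinone passes them to complex III, cytochrome c carries them to complex IV, and complex IV gives them to oxygen; the proton gradient built along the way drives the ATP synthase, also called complex V. Neurons depend on this pathway for most of their ATP. Its subunits come from both genomes: the mitochondrial DNA encodes a small set of core membrane subunits on long polycistronic transcripts, while the nucleus encodes the rest, all of complex II included.

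Values were RPKM as deposited by the authors, a read level scaled to gene length and to the mapped reads of a library. Levels of different genes can be set side by side only roughly. The lengths used and the counting of reads shared between genes are not stated. Ratios are log2 ratios after adding 1 RPKM, which understates the change of low genes. With 1 library per group there are no replicates, the values carry no error, and a ratio of single libraries has no test. Ratios were counted for 12160 genes whose 4 libraries averaged 1 RPKM or more. Of the 97 entries 91 were counted. Cox6c1, Cox7b2, Cox8b, Ndufa4l2 and a second entry of Ndufa13 lay under that mean, and for Cox6b1, which has entries on chromosomes 1 and 2, the higher was used. As a secondary summary limma fitted the side with age as an additive term. Its 1 residual degree of freedom is the difference between the ages, so a gene that behaves differently by age counts there as noise, but only in part. The fit pools the spread in large part over all tested genes, so an SE is not the measured error of its gene alone. The SE was 0.17 for Ndufv1 and 0.27 for Cox8a, whose side ratios differed between the ages by -0.0077 and 1.92.

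The libraries carried brain RNA: the summed level of 15 neuronal markers was 1664 to 2313 RPKM and that of 8 oligodendrocyte markers 2005 to 2724 RPKM, whereas 5 skeletal muscle markers summed to at most 1.61 RPKM, with Ckm listed at 0 in at least 1 library. Microglia and macrophage markers, 10 genes, summed to 908 and 918 RPKM on the ipsilateral side against 315 and 301 RPKM on the contralateral side, 13 months first. In such bulk tissue fewer cells of a type and less RNA per cell cannot be told apart. Read depth is unknown, because the table gives no counts.

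At 13 months all 13 mitochondrially encoded genes were lower on the side of the bleeding. Their log2 ratios ran from -0.44 to -0.19 with a median of -0.37, against a median of 0.01 over all tested genes, of which 48.9% were below 0. Summed over the 13 genes, the level was 73214 RPKM ipsilaterally and 91047 RPKM contralaterally, which is 18.5% and 23.3% of the RPKM sum of each library. No mitochondrially encoded gene was past a log2 ratio of 1 in either direction at this age, as was true of nearly all genes on the lower side (0.0658% of all tested genes were at -1 or below).

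The complex V subunit gene Mt-atp6 had 7953 RPKM ipsilaterally and 10761 RPKM contralaterally at 13 months, a log2 ratio of -0.44 and the lowest of the 13. The complex I membrane subunit genes followed closely, with ratios of -0.42 for Mt-nd1 and -0.40 for Mt-nd4, -0.39 for Mt-nd5, -0.38 for Mt-nd2 and -0.36 for Mt-nd3. Mt-cytb, the cytochrome b of complex III, and Mt-cox3, a core subunit of complex IV, were both at -0.37. Closest to 0 were Mt-nd6 (-0.19) and the complex IV core subunit genes Mt-co2 (-0.20) and Mt-co1 (-0.24), with Mt-nd4l at -0.26 and Mt-atp8 at -0.29. Genes of complexes I, III, IV and V were thus lower together, with an interquartile range of the log2 ratio of 0.13, against 0.48 for all tested genes.

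At 21 months the mitochondrially encoded genes no longer lay together. The median of their log2 ratio was -0.10, against 0.09 over all tested genes, and 9 of 13 were below 0, against 38.9% of all tested genes. The summed level was 82755 RPKM ipsilaterally and 93520 RPKM contralaterally, 20.6% and 24.1% of the library sums. Their ratios ran from -1.02 for Mt-atp8 to 0.34 for Mt-atp6.

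Mt-atp8 and Mt-atp6 encode membrane subunits of the ATP synthase and overlap on a shared transcript, so reads of the overlap cannot be told apart between them. Mt-atp8 had 15788 and 19261 RPKM at 13 months, ipsilateral first, and 8945 and 18092 RPKM at 21 months. It was the highest of all 13 genes in each library except the 21 month ipsilateral one, where it ranked below Mt-atp6, Mt-co2 and Mt-co1. Mt-atp6 had 7953, 10761, 14772 and 11663 RPKM in the same order and was highest in the 21 month ipsilateral library. The level of Mt-atp6 over that of Mt-atp8 was 0.504, 0.559 and 0.645 in the 13 month ipsilateral, 13 month contralateral and 21 month contralateral libraries, and 1.65 in the 21 month ipsilateral library. In that library these neighbours on 1 transcript stood apart from the other libraries in opposite directions.

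Mt-nd4l and Mt-nd4, complex I subunit genes that also share a transcript, kept closer together: the level of Mt-nd4 over Mt-nd4l was 2.58 and 2.84 at 13 months and 3.33 and 2.95 at 21 months, ipsilateral first. Mt-nd6 is the subunit gene that lies on the opposite strand from the other 12. It had 2166 and 2476 RPKM at 13 months and 1132 and 1768 RPKM at 21 months, lower at the older age on both sides. Its log2 age ratio was -0.48 contralaterally and -0.94 ipsilaterally, the lowest of the 91 counted genes in both cases. The sources used here do not say whether the counting kept the strands apart.

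**Figure D1:**
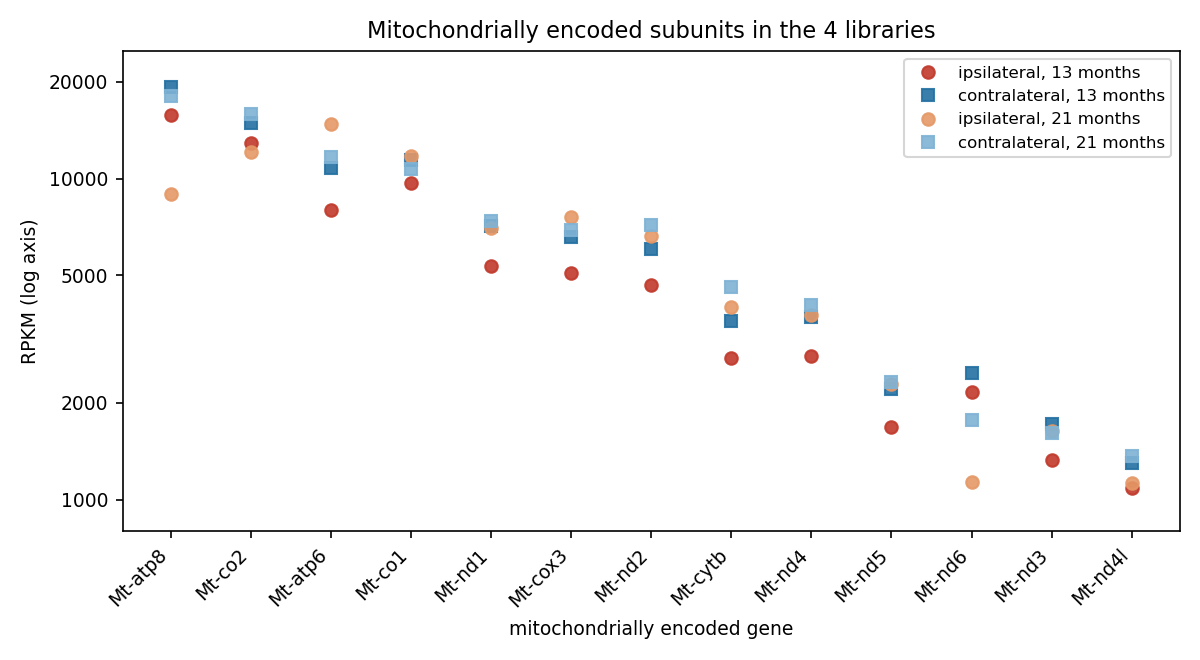
Level in RPKM (log axis) of the 13 mitochondrially encoded genes, ordered by mean level, with 1 point for each of the 4 libraries. The 13 month ipsilateral points (dark red circles) lie below the 13 month contralateral ones for all 13 genes, while the 21 month ipsilateral points lie far below the rest for Mt-atp8 (8945 RPKM) and highest for Mt-atp6 (14772 RPKM).

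Nuclear subunit genes were far less abundant than the mitochondrially encoded ones. The 78 counted nuclear genes summed to 8186 and 8904 RPKM at 13 months and to 9362 and 8667 RPKM at 21 months, ipsilateral first. The mitochondrially encoded sum was 8.94 and 10.2 times the nuclear one at 13 months and 8.84 and 10.8 times at 21 months, lower on the ipsilateral side at each age. The highest nuclear gene, Atp5b, the catalytic beta subunit of the ATP synthase, averaged 752 RPKM, below the lowest mitochondrially encoded gene, Mt-nd4l, at 1222 RPKM.

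At 13 months the nuclear genes were slightly lower on the ipsilateral side: 62 of 78 had a log2 ratio below 0, against 48.9% of all tested genes. Their median was -0.10 and the interquartile range 0.16. Among genes averaging at least 20 RPKM, 50 of 64 nuclear genes were below 0, against 54.9% of all such tested genes. The medians of these 2 sets were -0.12 and -0.04. With the genes outside the mitochondrial chromosome scaled to an equal sum in each library, 72 of 78 were below 0, against 59% of all tested genes, and the median was -0.20, against -0.08 for all tested genes. Of all 91 genes 12 were lower by at least 0.3, against 16.3% of all tested genes, and 8 of these 12 were mitochondrially encoded. A share of 12 in 91 is near that background.

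At 21 months the nuclear genes were spread more widely around a median of 0.11, close to the 0.09 of all tested genes. Of the 78, 53 were above 0, against 60.8% of all tested genes. Among genes averaging at least 20 RPKM, 41 of 64 nuclear genes were above 0, against 53.3% of all such tested genes. Their medians were 0.08 and 0.03. With median-ratio scaling of the libraries 40 of the 78 were above 0, and with equal sums outside the mitochondrial chromosome 39. The nuclear medians were then 0.01 and 0.0042, against -0.0047 and -0.01 for all tested genes. No direction can thus be given for the nuclear genes at this age. The interquartile range of the ratio was 0.45, against 0.16 at 13 months, while over all tested genes it was 0.45 and 0.48. A wider range at 21 months was not particular to these genes. It was 0.41 against 0.20 for 70 mitochondrial ribosomal protein genes, and 0.66 against 0.22 for 60 cytosolic ones. Over both ages 45 of the 91 genes were below 0 at 13 months and above 0 at 21 months, against 22.2% of all tested genes. This count was 33 with median-ratio scaling (16.3% of all tested genes) and 39 with equal sums outside the mitochondrial chromosome (19.4%). As deposited, another 30 were below 0 at both ages (26.5% of all tested genes), 12 above 0 at both (38.4%) and 4 above and then below (12.3%). Of the 70 mitochondrial ribosomal protein genes 25 were below 0 and then above it, and of the 60 cytosolic ones 2.

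**Figure D2:**
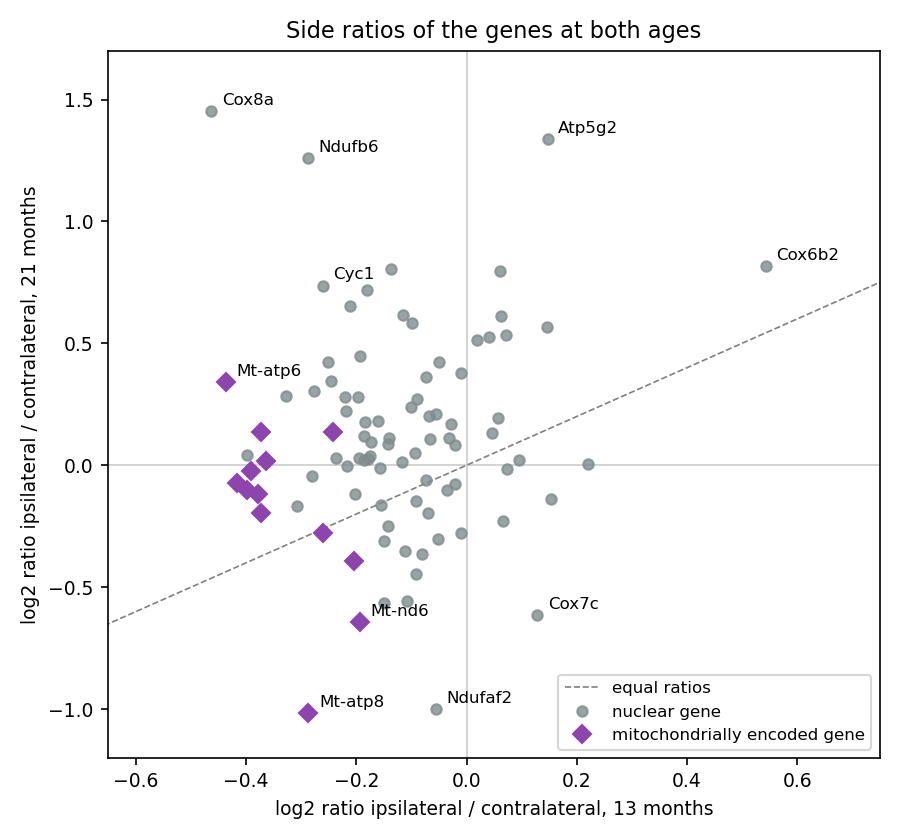
Side ratio (log2, ipsilateral over contralateral, pseudocount 1 RPKM) of the 91 counted genes, 1 point per gene, with 13 months on the horizontal and 21 months on the vertical axis. The 13 mitochondrially encoded genes (purple diamonds) all lie left of 0, and the points spread more along the vertical axis, from Mt-atp8 at -1.02 to Cox8a at 1.45, than along the horizontal one.

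Limma called 2 nuclear genes that rose on the ipsilateral side over both ages and 1 mitochondrially encoded gene that fell (Benjamini-Hochberg adjusted p under 0.05), against 13.3% of all tested genes that rose and 0.814% that fell. At an unadjusted p under 0.05 there were 6 of 91 genes, against 23.4% of all tested genes. The genes that rose were Cox6b2 and Atp5g2, and the gene that fell was Mt-atp8. The genes that rose are a small share beside that background, and the other 88 genes counted did not pass. Without the filter on low values limma called 0 of all genes tested, and 2 of these genes had an unadjusted p under 0.05. Only Cox6b2 was at least 0.3 higher ipsilaterally at both ages, against 16.2% of all tested genes, and 0 of 91 were at least 0.3 lower at both, against 2.92%. The latter count was 2 with median-ratio scaling (5.02% of all tested genes) and 4 with equal sums outside the mitochondrial chromosome (6.83%).

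Complex I, the NADH dehydrogenase, is the largest complex. Its 7 nuclear core subunits, which carry the flavin and the iron-sulfur clusters, were all lower ipsilaterally at 13 months, with a median log2 ratio of -0.20 and -0.28 for Ndufv2, the lowest. Ndufv2 had 205 and 249 RPKM at 13 months and 236 and 244 RPKM at 21 months, ipsilateral first, and was lower ipsilaterally at both ages. Ndufs1, the largest iron-sulfur subunit, had 60.5 and 69.5 RPKM at 13 months and 77.4 and 63.5 RPKM at 21 months. It was thus lowest in the 13 month and highest in the 21 month ipsilateral library. Ndufv1, which binds NADH, had nearly the same ratio at both ages, -0.15 and -0.16, and Ndufs7, an iron-sulfur subunit, was at -0.22 and 0.22. At 21 months 5 of the 7 were above 0, with a median of 0.03, below the 0.09 of all tested genes.

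The 23 accessory subunits, which surround the core, had a median ratio of -0.12 at 13 months, 19 of them below 0, and of 0.02 at 21 months, 10 of them below 0. Ndufb6 stood apart: it had 13.7 and 16.9 RPKM at 13 months, and 38.6 and 15.6 RPKM at 21 months, ipsilateral first, ratios of -0.29 and 1.26. Its value in the 21 month ipsilateral library exceeded the other 3 libraries, which lay close together. Ndufa7 showed the same order with a smaller size, 25.9 and 29.5 RPKM and then 47.0 and 28.1 RPKM. Ndufc2, with 70.7 and 76.7 RPKM and then 97.6 and 63.4 RPKM, was highest in the same library but lowest in the 21 month contralateral one. In the opposite direction, Ndufb10 had 255 and 283 RPKM at 13 months and 195 and 289 RPKM at 21 months, with ratios of -0.15 and -0.57. Ndufs5 had 115 and 124 RPKM and then 84.6 and 125 RPKM, with ratios of -0.11 and -0.56. Both were lowest in the 21 month ipsilateral library and within a narrow range elsewhere. The most abundant accessory gene, Ndufb9, had 447 and 494 RPKM and then 439 and 521 RPKM, lower ipsilaterally at both ages.

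Of 8 complex I assembly factors, which help to build the complex and are not part of it, 7 were below 0 at 13 months, with a median of -0.09. Ndufaf2, an assembly chaperone, had 16.7 and 17.4 RPKM at 13 months and 8.97 and 18.9 RPKM at 21 months, ipsilateral first, and its ratio of -0.999 at 21 months was the lowest of the nuclear genes. It missed the threshold for a 2-fold difference narrowly and passed it with a pseudocount of 0.1 RPKM. Ndufaf4 and Ndufaf5 were also lower ipsilaterally at 21 months (-0.35 and -0.36), whereas Ndufaf1 was at 0.22 and 0.00 and Ndufaf3 at -0.16 and 0.18 at the 2 ages. At 21 months Ndufaf7 was at 0.05 and Atp5sl, which despite its name belongs with these factors, at 0.11.

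Complex II, succinate dehydrogenase, is encoded by the nucleus alone and also works in the citric acid cycle. As deposited, Sdhb, Sdhc and Sdhd, the iron-sulfur subunit and the membrane anchors, had ratios of 0.06, 0.02 and 0.15 at 13 months. The medians of the other groups were below 0 at that age. With equal sums outside the mitochondrial chromosome the 13 month median of all tested genes was -0.08, against 0.01 as deposited. The signs of Sdhb and Sdhc at 13 months thus depend on the scaling. At 21 months the 3 genes were at 0.61, 0.51 and 0.57. Sdhb had 88.9 and 85.0 RPKM and then 124 and 80.5 RPKM, ipsilateral first. Sdhd had 67.1 and 60.6 RPKM and then 84.9 and 57.0 RPKM, and Sdhc had 128 and 126 RPKM and then 187 and 131 RPKM. All 3 were highest in the 21 month ipsilateral library. Sdha, the flavoprotein that oxidises succinate, did not share this: it had 140.0 and 163 RPKM and then 168.1 and 168.2 RPKM, lowest in the 13 month ipsilateral library and alike on both sides at 21 months. None of the 4 passed in limma (adjusted p of 0.23 to 0.77).

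Complex III, the cytochrome bc1 complex, had 7 of 8 genes below 0 at 13 months, with a median of -0.12, and 3 of 8 below 0 at 21 months. Cyc1, the cytochrome c1 subunit, had 26.2 and 31.6 RPKM at 13 months and 46.8 and 27.7 RPKM at 21 months, ratios of -0.26 and 0.74, and the small subunit gene Uqcr10 had ratios of -0.21 and 0.65. The large core proteins Uqcrc1 and Uqcrc2 went the other way at 21 months, at -0.30 and -0.15, from -0.05 and -0.09. Uqcrfs1, the Rieske iron-sulfur protein, was at -0.04 and -0.10. Uqcrh, the hinge protein and the most abundant gene of the group, had 274 and 303 RPKM and then 319 and 301 RPKM. Cycs, the mobile carrier cytochrome c that also takes part in apoptosis, had 74.6 and 85.0 RPKM at 13 months and 87.0 and 79.9 RPKM at 21 months.

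Complex IV, cytochrome c oxidase, showed the widest range of all groups. Cox8a, the ubiquitous form of subunit VIII, had 170 and 234 RPKM at 13 months and 526 and 192 RPKM at 21 months, ipsilateral first. It was the lowest nuclear gene at 13 months, with a ratio of -0.46, and the highest at 21 months, with 1.45. Cox5a had 23.8 and 26.2 RPKM and then 39.0 and 21.9 RPKM, ratios of -0.14 and 0.81. Cox7c and Cox6c, small subunits of the same complex, went the opposite way at 21 months: Cox7c had 124 and 114 RPKM and then 76.2 and 117 RPKM (0.13 and -0.62), and Cox6c had 374 and 399 RPKM and then 275 and 375 RPKM (-0.09 and -0.45). Subunits that are assembled in equal numbers into 1 enzyme thus had side ratios of opposite sign at 21 months. Their levels were unequal in all 4 libraries. Cox4i1, the most abundant nuclear gene of the complex, had 535 and 608 RPKM and then 654 and 578 RPKM (-0.18 and 0.18).

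Several complex IV subunits exist in tissue-specific or condition-specific forms. Cox4i2, the form known from lung and induced by hypoxia, stayed at 2.11 to 2.50 RPKM in all 4 libraries. The level of Cox4i1 was 251 and 278 times that of Cox4i2 at 13 months and 261 and 274 times at 21 months, ipsilateral first. Cox6a2 and Cox8b, forms of heart and skeletal muscle, were at 1.43 to 2.32 RPKM and at 0.05 to 0.39 RPKM. Cox6b2, known as the testis form of subunit VIb, had 1.71 and 0.86 RPKM at 13 months and 3.10 and 1.33 RPKM at 21 months. It was higher ipsilaterally at both ages and rose by 0.68 ± 0.17 as a log2 value (SE, 2 libraries on each side, adjusted p = 0.0074 in limma), but its values are low and their precision is unknown. The entries of Cox6b1, the general form, were at 42.8 and 41.0 RPKM and then 74.6 and 42.5 RPKM on chromosome 2, and at 34.5 and 34.8 RPKM and then 45.1 and 32.2 RPKM on chromosome 1. RefSeq's GRCr8 annotation places Cox6b1 on chromosome 1, so the counted, higher entry is not at that locus. The chromosome 1 entry had log2 ratios of -0.01 and 0.47, and the counted one 0.06 and 0.80. How reads were split between these entries is uncertain. Ndufa4, named for complex I and now known as a complex IV subunit, had 81.3 and 95.0 RPKM and then 106.7 and 87.7 RPKM. Its hypoxia-induced relative Ndufa4l2 had 0.78 and 0.82 RPKM and then 1.05 and 1.07 RPKM. Cox7a2l, which joins complexes III and IV into supercomplexes, was at 62.9 to 72.0 RPKM. No deposited entry carried the symbol Cox6a1, Cox7a1, Cox7a2 or Cox8c, so no value can be given for them.

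Complex V had 10 of 13 genes below 0 at 13 months, with a median of -0.07, and 9 of 13 above 0 at 21 months, with a median of 0.27. The catalytic core had close values on both sides: Atp5b had 728 and 765 RPKM and then 741 and 772 RPKM, and Atp5a1, the alpha subunit, 469 and 493 RPKM and then 428 and 491 RPKM, both lower ipsilaterally at each age. Atp5c1, the gamma subunit of the rotor stalk, was at -0.01 and -0.28. The 3 genes of the membrane ring subunit c encode the same mature protein, and they differed in level: at 13 and 21 months, ipsilateral first, Atp5g3 had 88.4, 101.2, 140.4 and 102.5 RPKM, and Atp5g1 had 5.91, 7.37, 10.8 and 8.53 RPKM. Atp5g2 had 31.7 and 28.6 RPKM and then 64.3 and 24.8 RPKM, ratios of 0.15 and 1.34. It rose by 0.74 ± 0.21 as a log2 value (SE, 2 libraries on each side, adjusted p = 0.02 in limma), with its highest value in the 21 month ipsilateral library and the other 3 libraries close together. The call was lost with a pseudocount of 0.1 RPKM (adjusted p = 0.058 in limma) and with equal sums outside the mitochondrial chromosome (adjusted p = 0.15 in limma), and also with a mean of at least 5 RPKM (adjusted p = 0.059 in limma). All 3 ring genes were highest in the 21 month ipsilateral library. Atp5e, the small epsilon subunit, was at 0.07 and 0.53, and Atp5l, a membrane subunit, at -0.40 and 0.04. In the same fit Mt-atp8 fell by 0.65 on the log2 scale (SE 0.19, adjusted p = 0.019 in limma), and its call was lost with a pseudocount of 0.1 RPKM (adjusted p = 0.058 in limma).

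**Figure D3:**
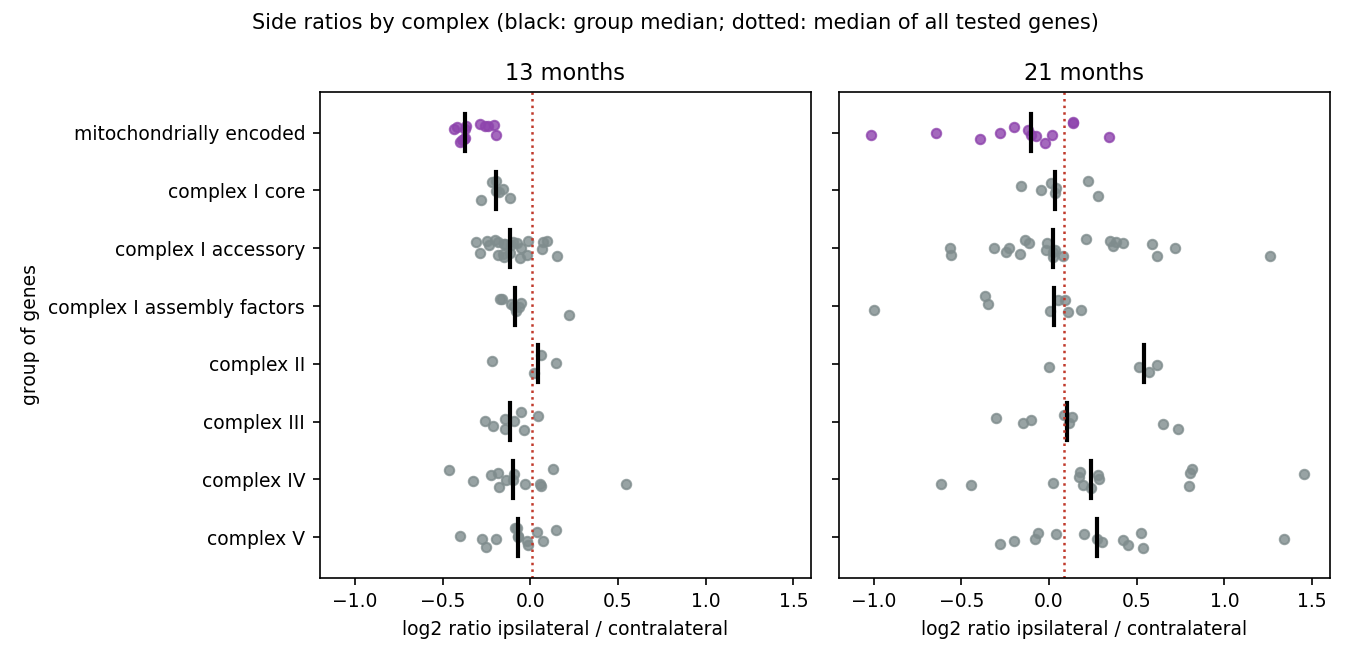
Side ratio (log2, ipsilateral over contralateral, pseudocount 1 RPKM) at 13 months (left) and 21 months (right), with 1 point per gene in each of 8 groups, the group median as a black line and the median of all tested genes (0.01 and 0.09) as a dotted line. The mitochondrially encoded genes have the lowest group median at both ages (-0.37 and -0.10), complex II the highest (0.04 and 0.54), and every group is wider at 21 months.

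The genes past a log2 ratio of 1 were few: 0 of 91 at 13 months, where 7.19% of all tested genes were at 1 or above, and at 21 months 3 higher (Cox8a, Atp5g2 and Ndufb6, against 5.61% of all tested genes) and 1 lower (Mt-atp8, against 0.288%). In the difference of the side ratio between the ages 3 of 91 were at 1 or above (0.65% of all tested genes) and 0 at -1 or below (0.757%). Each of Cox8a, Atp5g2, Ndufb6 and Mt-atp8 had its highest or lowest value of the 4 in the 21 month ipsilateral library. The sequences just before the start sites of the 3 higher genes are shown with that of Cycs as examples of nuclear promoters of this pathway. Nuclear respiratory chain genes are known for promoters bound by NRF1, by ETS factors such as GABPA, and by YY1. Each stretch runs from 170 to 1 base before the start of RefSeq's annotation, build GRCr8, 5′ to 3′, with matches to the motifs below in capitals.
Cox8a, chr1:213833624-213833793, minus strand: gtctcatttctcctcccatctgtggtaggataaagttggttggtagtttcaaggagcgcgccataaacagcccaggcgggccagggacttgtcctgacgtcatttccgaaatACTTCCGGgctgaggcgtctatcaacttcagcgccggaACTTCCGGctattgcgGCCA
Atp5g2, chr7:135678219-135678388, minus strand: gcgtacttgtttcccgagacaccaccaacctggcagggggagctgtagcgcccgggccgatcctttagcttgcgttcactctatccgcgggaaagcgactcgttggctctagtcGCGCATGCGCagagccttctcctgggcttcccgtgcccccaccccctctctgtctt
Ndufb6, chr5:60206153-60206322, minus strand: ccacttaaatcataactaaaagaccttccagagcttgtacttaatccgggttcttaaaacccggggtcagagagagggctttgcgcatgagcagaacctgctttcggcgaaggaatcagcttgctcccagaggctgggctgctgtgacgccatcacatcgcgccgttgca
Cycs, chr4:80984768-80984937, minus strand: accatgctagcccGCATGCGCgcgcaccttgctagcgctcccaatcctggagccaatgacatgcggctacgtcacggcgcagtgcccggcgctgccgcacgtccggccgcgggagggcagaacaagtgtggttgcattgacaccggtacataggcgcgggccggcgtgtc

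In these stretches Cox8a held the ETS letters CCGGAAGT on the reverse strand at 2 places, with first bases 58 and 20 bases before the start, and the beginning of a YY1 match that runs past the start. Atp5g2 held the longer, palindromic NRF1 letters printed in capitals above, with their first base 56 bases before the start, Cycs the shorter NRF1 letters GCATGCGC with their first base 157 bases before it, and Ndufb6 no match. Of the 84 nuclear entries 71 were matched to a RefSeq promoter of 300 bases (250 before and 50 after the start) by current or older symbol. On either strand GCATGCGC, which lies within that palindrome, was in 15.5% of these 71 against 2.47% of all 33469 promoters in the table. CCGGAAGT was in 11.3% against 3.81%, and AAGATGGC, the YY1 letters, in 18.3% against 3.17%. At least 1 of the motifs was in 27 of 71, or 38%, against 8.84%. The background was not limited to the genes counted here or to 1 promoter per gene. Whether these shares are particular to this pathway was not tested. A match of letters is a description of the sequence and shows no binding. Among counted genes the median side ratio was -0.08 at 13 months and 0.04 at 21 months for the 11 with GCATGCGC, and -0.10 and 0.13 for the 57 without it. The 6 with the palindrome were at -0.08 and 0.14, the 8 with CCGGAAGT at -0.11 and 0.11, and the 12 with AAGATGGC at -0.13 and 0.15, against 0.12 at 21 months for the genes without each of these. The genes with a motif were thus higher for some motifs and lower for others at 21 months, by small amounts.

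The ages were compared on each side, using the same 4 libraries as the side ratios, so these values are not independent of those above. Contralaterally the genes hardly differed between 21 and 13 months: the median log2 ratio was -0.03 for the nuclear and 0.08 for the mitochondrially encoded genes, against -0.03 for all tested genes, and 0 of 91 were past 1 (0.206% of all tested genes were at 1 or above and 0.132% at -1 or below). At least 0.3 higher at 21 months were Mt-cytb (0.35) and Cox6b2 (0.32), and at least 0.3 lower were Mt-nd6 (-0.48) and Atp5l (-0.34). These 2 and 2 of 91 are near the 2.83% and 3.41% of all tested genes. Ipsilaterally the medians were 0.20 and 0.39, against 0.03 for all tested genes. Of 91 genes 37 were at least 0.3 higher at 21 months, against 18.7% of all tested genes, and 8 at least 0.3 lower, against 15.2%. At 1 or above were 2 of 91 (0.321% of all tested genes) and at -1 or below 0 (0.658%). The highest were Cox8a (1.63), Ndufb6 (1.43), Atp5g2 (0.995), Mt-atp6 (0.89) and Ndufa7 (0.84), and the lowest Mt-nd6 (-0.94), Ndufaf2 (-0.83), Mt-atp8 (-0.82) and Cox7c (-0.70).

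Both ipsilateral libraries stood at an end of the range for most genes. In the 13 month ipsilateral library 49 of 91 genes had their lowest of 4 values, 10 of them mitochondrially encoded, against 32.1% of all tested genes. In the 21 month ipsilateral library 48 of 91 had their highest value, 45 of them nuclear, against 33.1% of all tested genes, and 19 of 91 had their lowest, against 20.8%. Of 70 mitochondrial ribosomal protein genes 38 also had their highest value in that library, and of 60 cytosolic ones 18. The oligodendrocyte markers had the same order of libraries at the ends as the nuclear genes, with sums of 2005 RPKM in the 13 month ipsilateral library, 2381 and 2242 RPKM in the contralateral ones and 2724 RPKM in the 21 month ipsilateral one. Neuronal markers summed to 1664 RPKM in the 13 month and 1899 RPKM in the 21 month ipsilateral library and to 2313 and 2244 RPKM contralaterally. All 14 counted neuronal markers were below 0 at 13 months, with a median of -0.43, and 11 of 14 at 21 months, with a median of -0.25. For 8 astrocyte markers the medians were -0.13 and 0.12, 13 months first, with 3 above 0 at 13 months and 6 at 21 months. Their sums were higher ipsilaterally at both ages, 2122 against 1646 RPKM and 2451 against 1468 RPKM. For 8 oligodendrocyte markers the medians were -0.11 and 0.33, with 3 above 0 at 13 months and 8 at 21 months. The 5 choroid plexus markers had medians of -0.49 and -0.75, and 3 of them were below 0 at both ages. For 6 counted blood cell markers the medians were 1.18 and 0.78, but these describe no common direction. Of the 6, 3 were above 0 at both ages and 3 below 0 at both. The part of such cell types in the values of the respiratory chain genes was not tested.

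The spread of the age ratio was wider on the ipsilateral side in every family looked at. The interquartile range of the log2 age ratio was 0.16 contralaterally and 0.42 ipsilaterally for the nuclear genes, and 0.20 and 0.45 for the mitochondrially encoded ones. Over all tested genes it was 0.17 and 0.41, for 70 mitochondrial ribosomal protein genes 0.18 and 0.30, and for 60 cytosolic ribosomal protein genes 0.19 and 0.61. The width seen in the respiratory chain genes is thus close to that of all genes. The families differed in their medians: ipsilaterally the cytosolic ribosomal genes were at -0.28 and the mitochondrial ribosomal ones at 0.10, against 0.20 for the nuclear respiratory chain genes. The sources used here give no gene lengths, so whether uneven values in the 21 month ipsilateral library go with short genes was not tested.

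**Figure D4:**
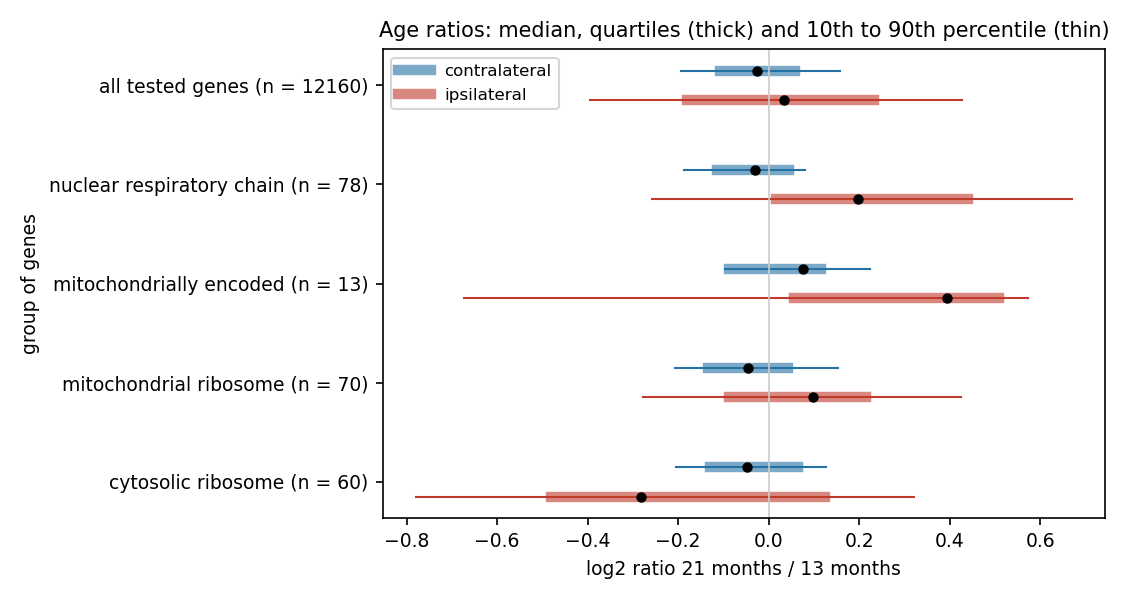
Log2 ratio of RPKM at 21 months to 13 months, after adding 1 RPKM, in 5 groups of genes, with the median (point), quartiles (thick line) and the range from the 10th to the 90th percentile (thin line) for the contralateral (blue) and ipsilateral (red) side. The ipsilateral range is the wider in all 5 groups, and the ipsilateral medians run from -0.28 for the cytosolic ribosome to 0.39 for the mitochondrially encoded genes.

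Other genes of mitochondrial function were described from lists chosen by role. Of 40 assembly genes not named like subunits, 20 were below 0 at 13 months and 15 at 21 months, with medians of 0.01 and 0.09, the same as all tested genes. The copper chaperone gene Cox17 had 393 and 370 RPKM and then 182 and 347 RPKM, lowest in the 21 month ipsilateral library, and Cox16 was the 1 that rose in limma, by 0.56 on the log2 scale (adjusted p = 0.026 in limma). Ttc19, a complex III assembly factor, was at -0.35 and -0.22, and Cox14, a complex IV one, at 0.05 and 0.76. Of 26 genes that copy, transcribe or process mitochondrial DNA and RNA, 13 were below 0 at 13 months and 6 at 21 months, with medians of 0.00 and 0.13. Rexo2, a nuclease that degrades short RNA in mitochondria, was the 1 of these that rose, by 0.69 on the log2 scale (adjusted p = 0.0058 in limma), with 66.5 RPKM against 41.3 RPKM at 13 months and 62.8 RPKM against 38.3 RPKM at 21 months. Peo1, the helicase that unwinds mitochondrial DNA, was at -0.34 and -0.42 and did not pass. Tfb2m, a mitochondrial transcription factor, was at -0.24 and 0.03, and Hsd17b10, a subunit of mitochondrial RNase P, at 0.32 and 0.40.

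Of 14 citric acid cycle genes 0 passed in limma, with 0 at an unadjusted p under 0.05. Their medians were -0.13 and 0.11, close to those of the nuclear respiratory chain genes (-0.10 and 0.11). Sucla2, a subunit of succinyl-CoA synthetase, was lowest by the mean of both ages, at -0.27 and -0.34, and Idh2, an NADP-dependent isocitrate dehydrogenase, highest at 0.39 and 0.15. Idh3a, of the NAD-dependent isocitrate dehydrogenase, was at -0.33 and -0.02, and Suclg2, another succinyl-CoA synthetase subunit, at 0.13 and 0.22. Import, cristae and carrier genes, 28 in all, had medians of 0.00 and 0.04, and 0 passed in limma (1 at an unadjusted p under 0.05). The small Tim chaperone genes Timm10 (-0.16 and -0.47) and Timm8b (-0.16 and -0.22) were lowest, and the prohibitin gene Phb2 (0.27 and 0.49) and Tomm7, of the outer membrane import pore (-0.06 and 0.66), were highest, by the same mean. Among 8 regulators of mitochondrial biogenesis the medians were 0.19 and 0.02, and 0 passed in limma (1 at an unadjusted p under 0.05). The coactivator gene Ppargc1a was at -0.29 and -0.03, and Gabpa, a subunit of an ETS factor, at 0.47 and 0.27, with its partner Gabpb1 at 0.26 and 0.28 and Yy1 at 0.26 and -0.46. Of 8 genes of alternative electron entry and uncoupling, Ucp2, an inner membrane carrier abundant in microglia and macrophages, rose by 1.76 on the log2 scale (adjusted p = 6.5e-08 in limma), with 66.8 RPKM against 19.8 RPKM at 13 months and 61.5 RPKM against 16.7 RPKM at 21 months. Prodh, the proline dehydrogenase that passes electrons to ubiquinone, fell by 0.67 (adjusted p = 0.0071 in limma). Gpd2, the mitochondrial glycerol-3-phosphate dehydrogenase, was at -0.08 for both ages, and Sqrdl, the sulfide quinone reductase, at 0.62 and 0.37. The microglia and macrophage markers moved with Ucp2: all 10 rose in limma. Their part in its rise was not tested.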

How the data were processed

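Polyadenylated RNA of 4 libraries was measured, 1 per group. The authors deposited RPKM values, rounded to 2 decimals, for 17853 genes. Per the submitters' processing notes cutadapt, TopHat2 and edgeR were used, without stated versions or roles, and the build named there is human while the gene identifiers are rat, so no build is given for these values. The sources used here do not state the counting, strand use or gene lengths. Column labels were matched to samples by the titles.

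Ratios of log2(RPKM + 1) were taken for 12160 genes averaging 1 RPKM or more over the libraries. Entries sharing a symbol were reduced to the highest. limma (version 3.58.1, R 4.3.3) fitted side plus age with eBayes, two-sided, with Benjamini-Hochberg adjustment over all 12160 genes, and was tested on simulated data. Where nothing says that libraries are biological repeats, its p-values measure only the spread between these libraries. By eBayes that spread is pooled in large part over all genes tested. Depth is unknown and the precision of single values with it. Named genes were all mitochondrially encoded genes, the extremes and most abundant of each complex, the extremes of the age comparisons, a set of isoforms and, of each other list of mitochondrial genes, its highest and lowest 2 by the mean side ratio; 1 gene this gives is not reported here. The genes and lists were chosen with earlier results of these data known. Alternatives changed the pseudocount, filter, scaling, shared symbols and assembly factors. A comparison by coding length was not run, since no lengths were at hand.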

Additional observations from a re-analysis of the deposited data

Results flagged for a closer look

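For 2 genes the side ratio was past 0.3 on the log2 scale in opposite directions at the 2 ages. Cox8a had a log2 ratio of -0.46 at 13 months and 1.45 at 21 months, a difference of 1.92. Mt-atp6 had -0.44 and 0.34, a difference of 0.78. With 1 library per group these differences were not tested. For both genes the lowest value was in the 13 month and the highest in the 21 month ipsilateral library.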

How the results depend on the processing

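Of 225 values recomputed under the alternatives for 32 results, 197 kept their direction and side of the threshold, or stayed within 0.1 (log2) or 1.5 times. Many could not move: the filters, shared symbols and assembly factors leave the mitochondrially encoded ratios unchanged. The limits are also wide. With median-ratio scaling a nuclear 21 month median of 0.11 against 0.01 and a count of 53 against 40 passed as unchanged. The 197 is thus no measure of stability. Scaling mattered most. With median-ratio scaling the median 21 month side ratio of the mitochondrially encoded genes was -0.21. Under it 2 genes were at least 0.3 lower at both ages (0 as deposited), and 2 were at least 1 lower at 21 months. At least 1 lower were also 1 in the ipsilateral age ratio and 1 in the difference between ages (0 and 0 as deposited). Limma then called 2 of 91 that fell, against 248 of all 12160 tested genes (99 as deposited). With equal sums outside the mitochondrial chromosome the mitochondrially encoded medians were -0.47 at 13 months and -0.21 at 21 months. The nuclear median at 21 months was then 0.0042. In that setting 4 genes were at least 0.3 lower at both ages, and 2 were at least 1 lower at 21 months. Limma called 1 that rose, against 1173 of all tested genes (1618 as deposited). These scalings moved the 21 month median of all genes from 0.09 to -0.0047 and -0.01. With a pseudocount of 0.1 RPKM limma called 1 gene that rose and 0 that fell (4 at an unadjusted p under 0.05). Over all tested genes it called 1590 and 102. With that pseudocount 2 genes were at least 1 lower at 21 months and 1 in the difference between ages. The shares of all genes past 1 were not counted under the alternatives. With no filter limma called 0 in either direction, here and over all genes tested (2 at an unadjusted p under 0.05). With a mean of at least 5 RPKM limma called 0 that rose (5 at an unadjusted p under 0.05 in either direction). Over all genes tested then it called 841 that rose. At that mean 0 genes were at least 0.3 higher at both ages (Cox6b2 otherwise), because Cox6b2 is then not counted. The causes of the other changes were not tested. At 13 months alone, an alternative chosen after seeing the data, 12 genes were at least 0.3 lower. Adjusted p in limma over the alternatives was 0.01 to 0.45 for Atp5g2, 0.0012 to 0.17 for Cox6b2 and 0.004 to 0.33 for Mt-atp8. The age term of the limma fit already sets the 2 sides of each age against each other. No paired analysis was possible because the labels carry no replicate numbers, beyond that pairing by age, and leaving out 1 library leaves limma no residual degree of freedom.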
